A study of Mus musculus with 24 samples.

Results

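The circadian clock genes were described in H3K27ac ChIP-seq of liver from 2 inbred mouse strains, C57BL/6J (called B6) and CAST/EiJ (called CAST), with both sexes of each. H3K27ac is an acetyl mark on histone H3 found at active promoters and enhancers. The set holds 10 genes, Arntl, Clock, Npas2, Per1, Per2, Cry1, Nr1d1, Nr1d2, Dbp and Nfil3, of 22350 protein-coding genes on the autosomes and X. The rule used gene names and no measured value. Every peak overlapping the gene body plus 10 kb on each side (mm9) was taken, which gave 110 regions of the 119348 formed by merging the overlapping peaks of all 4 lists.

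The 4 groups were each sex of each strain, inbred mice 8 weeks old, with no treatment or engineered allele given in the labels. Each group had 5 livers and 1 input control, and the livers of a group were pooled into 1 peak list, so no value below has a spread between animals and no test between groups was possible. Mice of all 4 groups were killed in the same late-morning window and were mixed in each collection, so the values stand for 1 phase of the day and say nothing of a rhythm. B6 is mainly of the domesticus subspecies and CAST is of the castaneus subspecies. A strain field of the labels names every female CAST and every male B6; the titles, which the list names follow, were used instead.

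The liver clock is a feedback loop. CLOCK or its paralogue NPAS2 pairs with BMAL1, the product of Arntl, and binds E-boxes to activate the Per and Cry genes, the REV-ERB genes Nr1d1 and Nr1d2, and Dbp. PER and CRY proteins then inhibit the activators, and the REV-ERB receptors repress Arntl, Npas2, Cry1, Clock and Nfil3 through ROR elements, so that Arntl and Npas2 transcripts peak at about the opposite time of day to those of Dbp, Nr1d1 and Per genes. DBP activates and NFIL3 represses through D-boxes, and through them the clock drives daily rhythms of liver detoxification and lipid metabolism.

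Dbp, Per2, Per1 and Nr1d1 had the highest covered share of their windows, counting bases at promoters of neighbouring genes. The upstream sequences show where clock motifs lay at these 4 genes and at Cry1. Each is the run of 250 bases before the annotated start, 5′ to 3′ on the strand of the gene, from the mm9 reference, which is a B6 genome. Capitals mark the motifs that were searched on both strands. They were the E-box CACGTG, its variant CACGTT (which reads AACGTG on the other strand), the D-boxes TTATGTAA and TTACGTAA, and the ROR element cores TAGGTCA and TGGGTCA.
Per1, chr11:68908469-68908718, plus strand: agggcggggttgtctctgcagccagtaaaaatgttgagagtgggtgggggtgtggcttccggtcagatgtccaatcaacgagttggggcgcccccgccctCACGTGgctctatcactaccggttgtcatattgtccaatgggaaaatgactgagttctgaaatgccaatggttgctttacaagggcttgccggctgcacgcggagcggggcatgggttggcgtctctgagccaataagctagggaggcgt
Per2, chr1:93355908-93356157, minus strand: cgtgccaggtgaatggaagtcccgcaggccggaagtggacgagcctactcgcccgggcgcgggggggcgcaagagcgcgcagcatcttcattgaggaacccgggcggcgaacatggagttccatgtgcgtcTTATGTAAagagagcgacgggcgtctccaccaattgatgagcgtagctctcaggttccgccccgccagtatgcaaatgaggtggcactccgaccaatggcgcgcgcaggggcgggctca
Cry1, chr10:84647800-84648049, minus strand: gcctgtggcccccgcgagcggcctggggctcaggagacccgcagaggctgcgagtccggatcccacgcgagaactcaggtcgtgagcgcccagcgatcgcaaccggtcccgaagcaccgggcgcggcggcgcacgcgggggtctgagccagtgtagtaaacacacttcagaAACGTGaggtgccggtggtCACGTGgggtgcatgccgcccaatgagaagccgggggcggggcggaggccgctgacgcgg
Nr1d1, chr11:98636648-98636897, minus strand: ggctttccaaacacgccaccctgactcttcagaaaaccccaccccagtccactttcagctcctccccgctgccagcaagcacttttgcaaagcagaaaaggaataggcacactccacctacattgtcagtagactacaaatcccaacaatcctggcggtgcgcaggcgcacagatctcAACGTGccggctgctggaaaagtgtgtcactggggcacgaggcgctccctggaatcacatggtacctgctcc
Dbp, chr7:52960208-52960457, plus strand: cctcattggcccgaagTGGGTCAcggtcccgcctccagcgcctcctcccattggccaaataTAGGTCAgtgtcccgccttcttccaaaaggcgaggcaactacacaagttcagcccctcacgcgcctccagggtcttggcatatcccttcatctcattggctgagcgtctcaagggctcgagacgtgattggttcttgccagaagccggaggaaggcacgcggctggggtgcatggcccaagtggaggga

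Positions of motifs are given in bases from the annotated start, negative before it. Per1 held an E-box at -150 of its first start and another at -165 of a start inside the gene, at position 68912450. Per2 held the E-box variant at 12 and the D-box TTATGTAA at -119. Cry1 held an E-box at -60 and the variant at -79. Nr1d1 held the variant at -72 of its upstream start. Dbp held TGGGTCA at -234 and TAGGTCA at -189 of its first start, and E-boxes at -177 and -64 and the variant at -115 of a start inside the gene, at position 52963259. Nfil3 held TAGGTCA at 23. No motif of the set was in the corresponding 300 bases (250 before to 50 after a start) of Arntl, Clock, Npas2 or Nr1d2, which says only that these letters are not in those windows. In all, 3 of 10 members held the E-box, 4 the variant, 1 a D-box and 2 a ROR core at some start. Over all 22350 genes the shares were 13.1%, 10%, 2.16% and 12.7%, and of 70018 such windows at all annotated starts 7.28%, 4.84%, 0.901% and 5.95% held the motif. At 300 bases around the summit of the highest promoter peak in the B6 male list, 1 member, Nr1d2, held an E-box, against 5.51% of 13612 such windows.

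The labelled tissue was checked first. All 8 hepatocyte markers (Alb and Hnf4a among them) had a promoter peak in all 4 lists, with summit pileups of 122 to 437 fragments. Of markers of other liver cells, all 3 of endothelium (pileups 46 to 303) and Sox9 of bile ducts had peaks in all lists. None of the 3 leukocyte and Kupffer cell markers did: Ptprc was at 45 to 60 in 3 lists, Clec4f at 41 in 1, and Cd5l had no peak. Neither stellate cell marker did, Lrat being at 39 in CAST females only and Des without a peak, and Krt19 of bile ducts had no peak. Of 6 markers of other tissues, Gfap had peaks of 45 to 84 in all lists, Nkx2-5 peaks of 46 to 68 in 3, and 4 had none. Markers were not all level between the strains. Hnf4a had 338 and 285 in male and female B6 and 156 and 122 in male and female CAST. Stab2 of endothelium had 187 and 196 in male and female B6 and 303 and 253 in male and female CAST. In whole liver, fewer cells carrying the mark and less of the mark per cell cannot be told apart.

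The summit pileup is the number of overlapping fragments at the highest position of a peak. It was solved from the authors' fold enrichment and p-value and came out whole, within 0.02, for 99.93% to 99.98% of peaks. Sets of 4 values are given in the order male B6, female B6, male CAST, female CAST. The genome-wide background was 18.4, 18.7, 17.8 and 16.8 fragments, and the lists held 79818, 82176, 90228 and 84645 peaks. Apart from Wilson intervals of shares, the 95% intervals below are exact Poisson intervals of a pileup or exact conditional intervals of a pileup ratio. They cover counting error only and leave out differences between animals. A centred ratio is a ratio of pileups over genome background divided by its median over all genes with a promoter peak in both lists, or, for single regions, over all promoter or all distal regions called in both lists.

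All 10 clock genes carried H3K27ac at their promoters in every list. A promoter peak, one within 2.5 kb of an annotated start, was called in all 4 lists for 10 of 10 members and for 57.6% of protein-coding genes. The 21 regions at the members' own promoters were each called in all lists. So were the 10 at promoters of neighbouring genes inside the windows, such as Vamp2 and Hes7 beside Per1, Hes6 beside Per2, Mterfd3 beside Cry1, Rpl31 beside Npas2 and Car11, Sphk2, Rpl18 and Fam83e beside Dbp. Together 31 of 31 promoter regions were shared by all lists, where the share over all gene windows was 65.8%, and none was called in 1 list, where that share was 16.5%.

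Distal regions varied more between the lists. Of 79 distal regions in the clock gene windows, 36 were called in all 4 lists (45.6%, Wilson interval 35 to 56.5), beside 32.9% over all gene windows. In 1 list alone there were 28 (35.4%, interval 25.8 to 46.4), beside 37.6%. Of those, B6 females had 10 (12.7% of the distal regions) and each of the other lists had 6 (7.59%). Over all gene windows these shares were 7.52% and 9.42% in male and female B6 and 11.3% and 9.35% in male and female CAST. Over all 110 regions, the share in all lists was 60.9% (interval 51.6 to 69.5) beside 42.1% over all coding gene windows. The Wilson intervals treat the regions as independent, although they lie in 10 gene windows and Per2 alone held 8 of the 36. They are therefore no test against the background shares. No comparison with genes of like expression was made.

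Regions that separated the strains or the sexes in both lists of a side were few. In both sexes of B6 and neither of CAST there were 2, an intron region of Per2 at chr1:93325037-93325960 with pileups of 98 in males and 95 in females, and an intron region of Nr1d2 at chr14:19055020-19055454 with 51 and 41. The background share of that pattern was 3.8%. In both sexes of CAST only there was 1, in an intron of Arntl at chr7:120449143-120450243, with 49 and 47, where the background was 5.85%. In both males only there was 1, also in an Arntl intron, at chr7:120402758-120403142, with 70 and 58, where the background was 2.29%. In both females only there was none, where the background was 1.22%. These regions were picked out after their values were seen, and their best percentiles among the peaks of a list, by score, were 6.73 to 47.5.

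The windows differed widely in how much of them was covered. Dbp came first in every list, with 33.1%, 32.6%, 29.8% and 27.4% of its window covered. Of its 8306, 8180, 7474 and 6877 covered bp, 4293, 4359, 3873 and 3956 lay at promoters of neighbouring genes. The order of the windows given here counts such bases, and an order without them was not computed. Per2, Per1 and Nr1d1 followed in that order in all 4 lists, at 18.3% to 28.4%, at percentiles 95.7 to 99.7 of protein-coding genes. Nfil3 came next, at 11.7% to 14.2%. Clock was last in every list at 3.02% to 3.89%, and Npas2 stood at 4.9% to 5.71%. Over the 10 windows the covered share was 11.1%, 11%, 10.3% and 9.26%, beside 4.95%, 4.74%, 5.14% and 4.65% over all protein-coding gene windows.

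**Figure D1:**
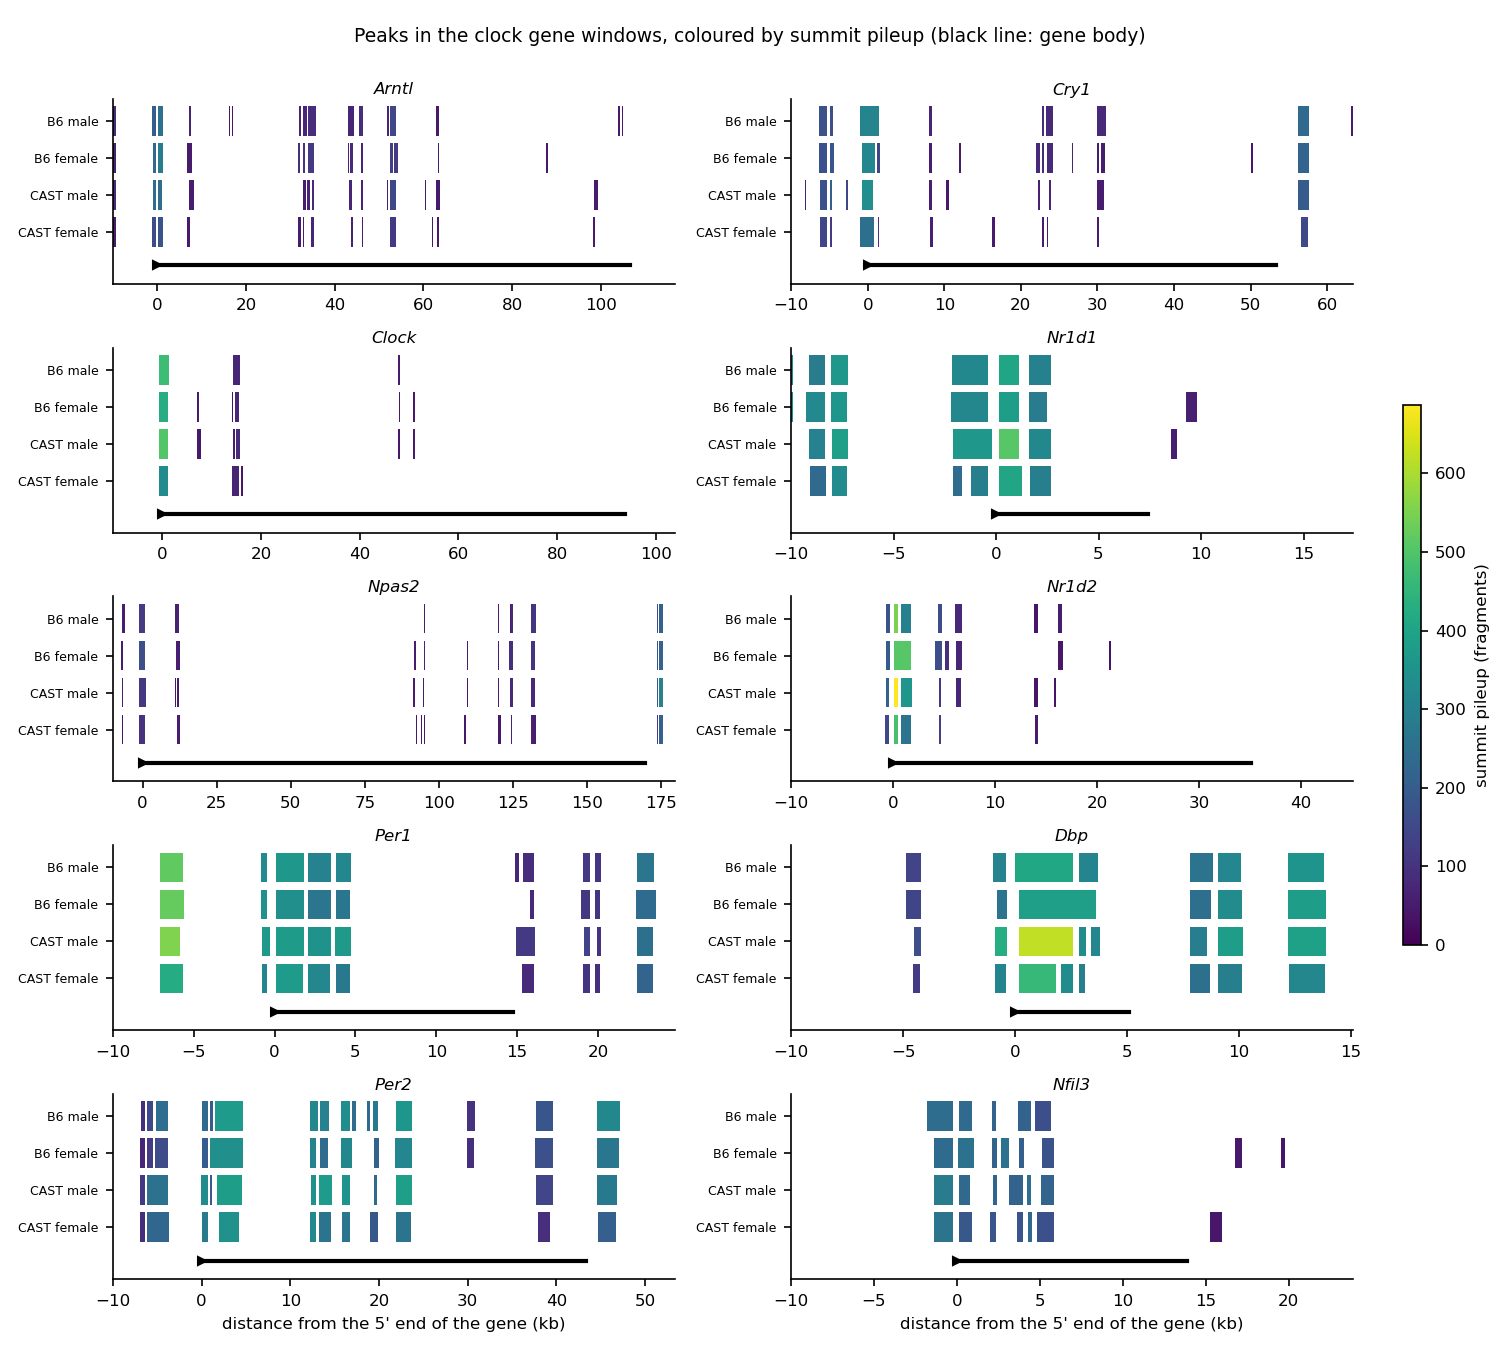
Peaks of the 4 lists (rows) in each clock gene window by distance from the 5′ end of the gene in kb, coloured by summit pileup in fragments; the black line is the gene body. Wide blocks of high pileup stood at Per1, Per2, Nr1d1 and Dbp, while Arntl, Clock and Npas2 had intron peaks of lower pileup than their promoter peaks.

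Among the activators, Arntl (chr7:120350979-120457636, plus strand; it encodes BMAL1) had the most distal regions, 17, of which 7 were in all lists. Its window held 12259, 9174, 9780 and 8353 covered bp. The B6 males were highest and the CAST females lowest. The 2 promoter regions lay on each side of the start, and the downstream one, chr7:120351030-120352266, with its summit in an intron, was the highest, with a pileup of 259, 283, 239 and 176 fragments. The widest distal region, in an intron at chr7:120383744-120386761, had 87, 118, 78 and 70. B6 females were highest and CAST females lowest at both.

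Clock (chr5:76639992-76733817, minus strand) had 1 promoter region, chr5:76732479-76734542, with a pileup of 472 and 428 in male and female B6 and 501 and 329 in male and female CAST. The CAST female value was the lowest, and its interval (294 to 367) did not reach those of the other 3 lists. After centring on all genes the ratio to CAST males was 0.843 (0.731 to 0.971), and that to B6 females, 0.897 (0.774 to 1.04), spanned 1. Of 5 distal regions, all in introns, 1 was in all lists, at chr5:76718144-76719734 with pileups of 70, 75, 84 and 68. Npas2 (chr1:39250576-39420079, plus strand), which can replace CLOCK in the activator pair, had the lowest promoter of the set. Its pileup was 119 and 166 in male and female B6 and 110 and 98 in male and female CAST. The B6 female interval (142 to 193) met that of B6 males (98.6 to 142) only at its edge and lay above both CAST lists. The widest distal region of Npas2, chr1:39381479-39383183, had 106, 106, 77 and 65.

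The repressors Per1 and Per2 were marked over broad stretches. Per1 (chr11:68908719-68923462, plus strand) had 4 own promoter regions, 1 before and 3 after its first start. The one just after the first start, chr11:68908806-68910523, had a pileup of 365, 343, 378 and 375, with B6 females lowest. The region before the start had 324, 339, 373 and 312. The widest distal region, chr11:68923586-68924832 beyond the gene's end, was weak, with 86, 78, 114 and 81. The strongest peak of the window belonged to the neighbour Vamp2, a vesicle fusion gene, with 519, 524, 554 and 422.

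Per2 (chr1:93312561-93355907, minus strand) had the most covered bases of the set: 18000 and 17493 bp in male and female B6 and 16017 and 14806 bp in male and female CAST. Both B6 lists were above both CAST lists, and in each strain males were above females. Scaled to the list, the ratios of females to males were 1.02 in B6 and 1.03 in CAST, so the order of the sexes turned. Of 11 distal regions 8 were in all lists. Those of the highest pileups were in introns. They were chr1:93332156-93334086 with 362, 314, 386 and 261, chr1:93339005-93340237 with 337, 320, 355 and 267, chr1:93342837-93343669 with 317, 308, 344 and 315 and chr1:93341220-93342661 with 302, 241, 375 and 261. Their order differed between the lists. The highest promoter peak lay in the first part of the gene, with its summit 3440 bp after the start, at chr1:93351232-93354959, with 375, 342, 380 and 346. The region at the start itself, chr1:93355170-93355968, was lower and differed more, with 236 and 200 in B6 males and females and 329 and 281 in CAST males and females. There the CAST lists were above the B6 lists in both sexes. Upstream, the widest distal region, chr1:93359644-93362104, had 246, 158, 255 and 227, with B6 females lowest. Downstream in the gene, chr1:93316248-93318285 had 184, 168, 143 and 93, with both CAST lists below both B6 lists.

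Cry1 (chr10:84594447-84647799, minus strand), which encodes the main transcriptional repressor of the loop, had 1 promoter region, chr10:84646235-84648846, with a pileup of 311, 316, 340 and 252. Its window held 8356, 8596, 7068 and 5765 covered bp. CAST females were lowest in both. After centring, the promoter pileup ratio of CAST females to males was 0.952 (0.805 to 1.12), which spanned 1. Of 15 distal regions 5 were in all lists and 7 in 1 list. Upstream, chr10:84652263-84652787 had 166, 185, 206 and 116, with CAST females lowest and a centred ratio of CAST females to males of 0.643 (0.507 to 0.811). Beside it, chr10:84653071-84654209 had 173, 171, 174 and 143. The widest distal region, chr10:84583056-84584626 in an intron of Mterfd3, had 47, 41 and 42 and no peak in CAST females. It crosses the edge of the window, inside which only B6 males (47) and CAST males (39) had a peak of it.

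The REV-ERB receptor genes included the strongest promoter of the set. Nr1d2 (chr14:19036568-19071641, minus strand) had its highest peak just inside the gene, in the region chr14:19069806-19071586, with a pileup of 548 and 505 in male and female B6 and 687 and 484 in male and female CAST. It was at percentiles 99.2 to 99.8 of gene promoters. CAST males were highest, with an interval of 637 to 740 that lay above the other 3. After centring, the ratio of CAST females to CAST males was 0.905 (0.804 to 1.02) over genes and 0.887 (0.788 to 0.998) over promoter regions, so whether it spanned 1 depended on the centring. Its distal regions were weak: 1 of 7 was in all lists, at chr14:19066850-19067542 with 159, 163, 117 and 124. The widest, chr14:19064837-19065571, had 77, 72 and 75 and no peak in CAST females. Its window held 3560, 4516, 3269 and 2390 covered bp, with B6 females highest and CAST females lowest. In the numbering of the peaks, 2 numbers were missing across the window in B6 males and 1 in B6 females, and what they stood for was not analysed here; no number was missing in the other 9 windows.

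Nr1d1 (chr11:98629246-98636647, minus strand; it overlaps the thyroid hormone receptor gene Thra) had 3 own promoter regions. The highest, chr11:98635387-98636512, had 407, 379, 505 and 405, with CAST males highest. After centring, the ratio of CAST females to males was 1.03 (0.901 to 1.18) which spanned 1. That of CAST to B6 males was 1.13 (0.992 to 1.29) over genes and 1.14 over promoter regions, where the lower bound lay at 1 and just excluded it, so that call depended on the centring. In all lists there were also 3 distal regions upstream. The strongest, chr11:98643885-98644683, had 367, 361, 386 and 330. The widest, chr11:98646537-98647872, which crosses the edge of the window, had 323, 349, 348 and 249. In both CAST lists the peaks of that region lay outside the window. The remaining 2 of the 5 distal regions of Nr1d1, in Thra introns, were each in 1 list and had 57 and 60.

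Of the D-box factors, Dbp (chr7:52960458-52965525, plus strand) had no distal region: every region in its window lay at its own promoter or at that of a neighbour. Its main region, chr7:52960457-52964226, covered most of the gene and had a pileup of 409 and 384 in male and female B6 and 622 and 460 in male and female CAST. Both CAST lists were above both B6 lists, and the interval of CAST males (574 to 673) lay above all others. After centring, the ratio of CAST females to CAST males was 0.95 (0.84 to 1.07), which spanned 1. The smaller region before the start, chr7:52959464-52960085, had 310, 262, 426 and 313, again with CAST males highest and B6 females lowest. Promoters of neighbouring genes in the window included the region of Rpl18 and Sphk2 at chr7:52969497-52970606, with 316, 331, 379 and 293.

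Nfil3 (chr13:53062578-53076442, minus strand) had promoter regions on each side of its start. The one before it, chr13:53076666-53078271, had 242, 238, 282 and 262, and the one after it, chr13:53075412-53076361, had 234, 256, 230 and 187. One distal region found in a single list stood above percentile 50, chr13:53073324-53073808 in B6 females, at percentile 67.3 with a pileup of 256. It directly adjoined the widest distal region, chr13:53071926-53073317, which was called in all lists with 214, 204, 246 and 229.

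**Figure D2:**
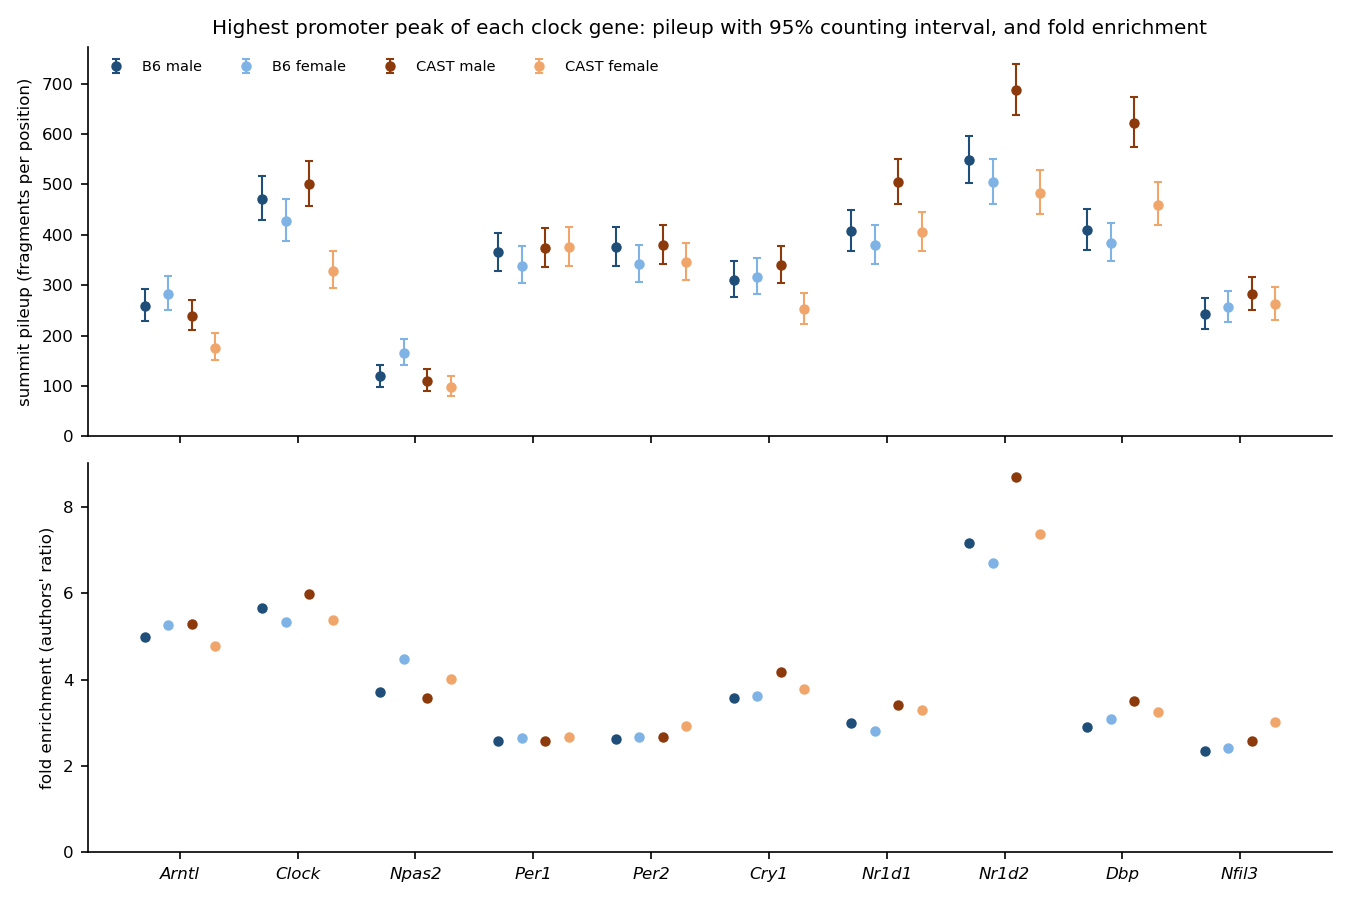
Highest promoter peak of each clock gene in the 4 lists: summit pileup in fragments with its 95% Poisson counting interval (top) and the authors' fold enrichment, a ratio (bottom). Nr1d2 was highest and Npas2 lowest by pileup in every list; Per1, Per2, Nr1d1, Dbp and Nfil3 had high or middling pileups and low fold enrichments.

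By pileup per position, Nr1d2 led in every list and Npas2 came last. Clock had rank 2 in both B6 lists, rank 4 in CAST males and rank 6 in CAST females. Most neighbours in the order had overlapping intervals. The exceptions were Npas2, whose interval lay below that of the next gene in every list, and 2 steps in CAST males, Dbp above Nr1d1 and Clock above Per2. In CAST females Cry1 (222 to 285) also lay above Arntl (151 to 204).

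The order by fold enrichment, which is the pileup over the local background of the peak, was different. In B6 males, Per1 had a pileup at percentile 81.7 of 13612 gene promoters and a fold enrichment of 2.58, at percentile 8.77. Per2 stood at percentiles 84.4 and 9.66, Nr1d1 at 91.8 and 15.1, and Dbp at 92 and 13.9. Nfil3 was at 41.6 and 5.54. At these genes the local background was 102 to 142 fragments, 5.57 to 7.73 times the genome-wide value and at percentiles 95.9 to 99.3 of all peaks. The gap between the percentiles was wider than at Nfil3 for Clock, at percentiles 98.3 and 58.7 with a local background of 82.8, and for Cry1, at 63.6 and 24.7 with 86.5. Nr1d2 stood at 99.8 and 81.7 with 75.8. The 2 percentiles were close for Arntl, at 46.3 and 48 with a background of 51.2, and for Npas2, at 20.7 and 27 with 31.3.

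**Figure D3:**
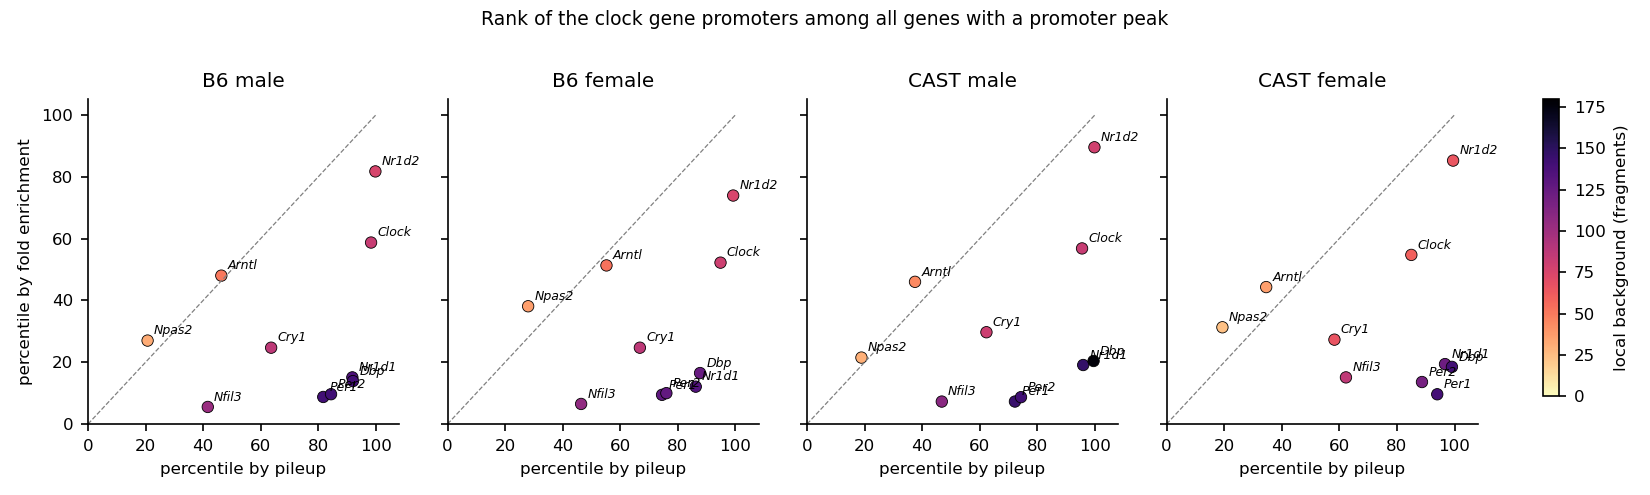
Percentile of each clock gene promoter by pileup (horizontal) and by fold enrichment (vertical) among all genes with a promoter peak, in each list, coloured by local background in fragments. Clock, Per1, Per2, Cry1, Nr1d1, Nr1d2, Dbp and Nfil3 lay below the diagonal in all 4 lists, with the gap of Clock and Cry1 about as large as that of Nfil3 in the B6 lists, and Npas2 lay above it in all 4.

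Across all peaks of a list, the local background rose with the bases covered by peaks in the 10 kb around the summit. Spearman's rho was 0.78 in B6 males and 0.79 in each other list (79818 to 90228 peaks, which share libraries and neighbouring positions). In B6 males the median background was 18.4 in the tenth of peaks with the least covered surroundings and 85 in the tenth with the most. The pileup rose with those bases as well, with rho of 0.72 to 0.73. The fold enrichment itself was nearly unrelated to them, with rho of 0.11 to 0.14. Per1 had 4458 bp covered within that distance in B6 males, more than 99.7% of peaks. The cause of the high local background was not tested.

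At several clock genes the start itself lay in a short gap between peaks. In the union of the 4 lists, the first start of Arntl lay in an uncovered gap of 402 bp, that of Per1 in one of 387 bp, that of Nr1d1 in one of 356 bp, the upstream start of Nr1d2 in one of 376 bp and that of Nfil3 in one of 304 bp. That was 5 of 10 members with a start in a gap of at most 500 bp, and 10.1% of the 12883 genes with a promoter peak in all lists had one. The Per1 E-boxes, the Nr1d1 variant, the Per2 D-box, the Dbp ROR cores and the Nfil3 ROR core were all outside the peaks of every list, while the Cry1 motifs were inside a peak in all 4. The Per2 E-box variant and the 3 Dbp motifs at its inner start were inside a peak in 1 list. The share of motifs outside peaks over all genes was not computed. The local background of the highest promoter peak in B6 males was 141 at Per1, 135 at Nr1d1 and 102 at Nfil3, and 51.2 at Arntl and 75.8 at Nr1d2; its part in these gaps was not tested.

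The 4 comparisons below share lists, since each list enters 2 of them, and their values are not independent. A member was counted as past the fold when the ratio of 2 lists was beyond 0.32 on the log2 scale in either direction. Shares of all genes past the fold were computed for the main setting only and not for the alternative settings named below. Pileup ratios were set over genome background and divided by the median over all genes with a promoter peak in both lists, because that median was 0.975, 0.823, 1.13 and 0.952 for B6 females to males, CAST females to males, male CAST to B6 and female CAST to B6. On the log2 scale these shifts were -0.04, -0.28, 0.18 and -0.07.

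Between the sexes of B6, covered bp passed the fold upward for Nr1d2, at 1.27, and downward for Arntl, at 0.748, where 11.3% of all genes with a peak were higher and 16.1% lower. Nr1d2 did not pass with windows of 25 kb (1.2) or lists of equal length (1.1), and Nfil3 passed downward with windows of 25 kb (0.769). With strong calls only, Arntl was at 0.875. Promoter fold enrichment passed for 0 members, beside 3.3% higher and 3.32% lower. The pileup ratio had an interval above 1 for Npas2 only, 1.4 (1.1 to 1.79), and below 1 for none, beside 6.03% and 5.5% of genes. For the other 9 members the ratio was between 0.913 and 1.1.

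Between the sexes of CAST, covered bp was lower in females for 9 of 10 members, with a median ratio of 0.886 beside 0.923 over all genes. Over all genes with a peak in both lists, the quartiles were -0.29 and 0.04 on the log2 scale, so most genes were lower as well. The CAST female list covered 65.3 Mb in all and the CAST male list 72.8 Mb. Covered bp passed the fold downward for Nr1d2, at 0.731, and Clock, at 0.778, and upward for none, where 24% of genes were lower and 7.03% higher. No promoter fold enrichment passed, beside 1.09% higher and 11.2% lower. The centred pileup ratio had intervals above 1 for Per1 (1.29, 1.12 to 1.49), Per2 (1.17, 1.01 to 1.36) and Nfil3 (1.19), whose lower bound was at 1, and below 1 for Clock (0.843, 0.731 to 0.971). The background was 6.28% above and 6.32% below. With the covered bases scaled to the list, neither downward call in covered bp held, Nr1d2 being at 0.815 and Clock at 0.868, and Nfil3 passed upward at 1.36. With strong calls only, Nr1d2 was at 0.989 and Clock at 0.849, and Arntl (0.762) and Npas2 (0.756) passed downward in their place. With windows of 25 kb Nr1d2 did not pass (0.818), and Arntl (0.797) and Cry1 (0.709) passed downward beside Clock. At Per1 the highest-scoring peak was the one before the start in CAST males and the one after it in CAST females. Within the region after the start the ratio was 0.32 on the log2 scale (interval of the ratio 1.08 to 1.44). In the other 3 own promoter regions of Per1 the intervals spanned 1, at 1.05 (0.903 to 1.23) before the start and at 1.14 (0.977 to 1.33) and 0.952 (0.812 to 1.11) in the remaining 2. Centred on promoter regions in place of genes, Per2 was at 1.15 (0.988 to 1.33) and Nfil3 at 1.17 (0.985 to 1.39), so both spanned 1. These Per2 values are of the peak inside the gene. At the Per2 start region the ratio was 1.07 (0.913 to 1.26), which spanned 1.

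Between the males, covered bp passed the fold downward in CAST for Arntl, at 0.798, and upward for none, beside 13.6% lower and 20.8% higher over all genes. Cry1, at 0.846, passed at 0.753 with strong calls only or lists of equal length. No promoter fold enrichment passed, beside 11.7% higher and 2.2% lower. The centred pileup was above 1 for Dbp (1.39, 1.22 to 1.58), at percentile 96.9 of genes, and for Nr1d2 (1.14, 1.02 to 1.28), and below 1 for none, beside 9.13% and 8.77%. Arntl stood at 0.842 (0.703 to 1.01) and Npas2 at 0.844 (0.645 to 1.1). At the Per2 start region the ratio was 1.29 (1.08 to 1.53).

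Between the females, covered bp was lower in CAST for 9 of 10 members, Nfil3 being the exception at 1.06, with a median of 0.846 beside 0.961 over all genes. The quartiles over all genes with a peak in both lists were -0.27 and 0.18 on the log2 scale. Covered bp passed the fold downward for Nr1d2, at 0.529, and Cry1, at 0.671, and upward for none, where 22.7% of genes were lower and 19.1% higher. At both genes the difference was mainly distal: the distal covered bases of Nr1d2 were 2371 in B6 females and 563 in CAST females, and those of Cry1 were 5135 and 2749. At the promoters of Nr1d2 and Cry1 the covered-base ratios were 0.852 and 0.996. With strong calls only Arntl (0.682) and Npas2 (0.753) also passed downward, as did Npas2 with lists of equal length (0.762) and Dbp without promoters of other genes (0.764). Over all 10 windows distal coverage was 42568 bp in B6 females and 33776 in CAST females, and in males it was 42655 in B6 and 39717 in CAST.

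Promoter pileup between the females went both ways. The 3 activators were below 1, and the interval of Clock reached past 1: Npas2 was at 0.689 (0.531 to 0.889), Arntl at 0.726 (0.598 to 0.879) and Clock at 0.897 (0.774 to 1.04). Dbp was at 1.4 (1.22 to 1.6), Per1 at 1.29 (1.11 to 1.5), Nr1d1 at 0.32 on the log2 scale (interval of the ratio 1.08 to 1.44), Nfil3 at 1.19 with a lower bound at 1, Per2 at 1.18 (1.01 to 1.37) and Nr1d2 at 1.12 (0.985 to 1.27). Cry1 was at 0.93 (0.785 to 1.1). The highest-scoring Per1 peak was the one before the start in B6 females and the one after it in CAST females; within the former region the ratio was 1.06 (0.908 to 1.24) and within the latter 1.26 (1.09 to 1.46). In its remaining 2 own promoter regions it was 1.38 (1.17 to 1.63) and 1.2 (1.01 to 1.42). By the highest peak, 5 members had an interval above 1 and 2 below, where 11.6% and 10.9% of 13100 genes did. At the Per2 start region the ratio reached 1.62 (1.35 to 1.95), at percentile 97.3 of promoter regions. By fold enrichment 1 member passed, Nfil3 upward with 2.41 in B6 females and 3.02 in CAST females, beside 5.6% higher and 7.98% lower. Its highest-scoring peak was the one after the start in B6 females and the one before it in CAST females. Within the latter region the pileup ratio was 1.27 (1.06 to 1.52), and within the former it was 0.843 (0.694 to 1.02).

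**Figure D4:**
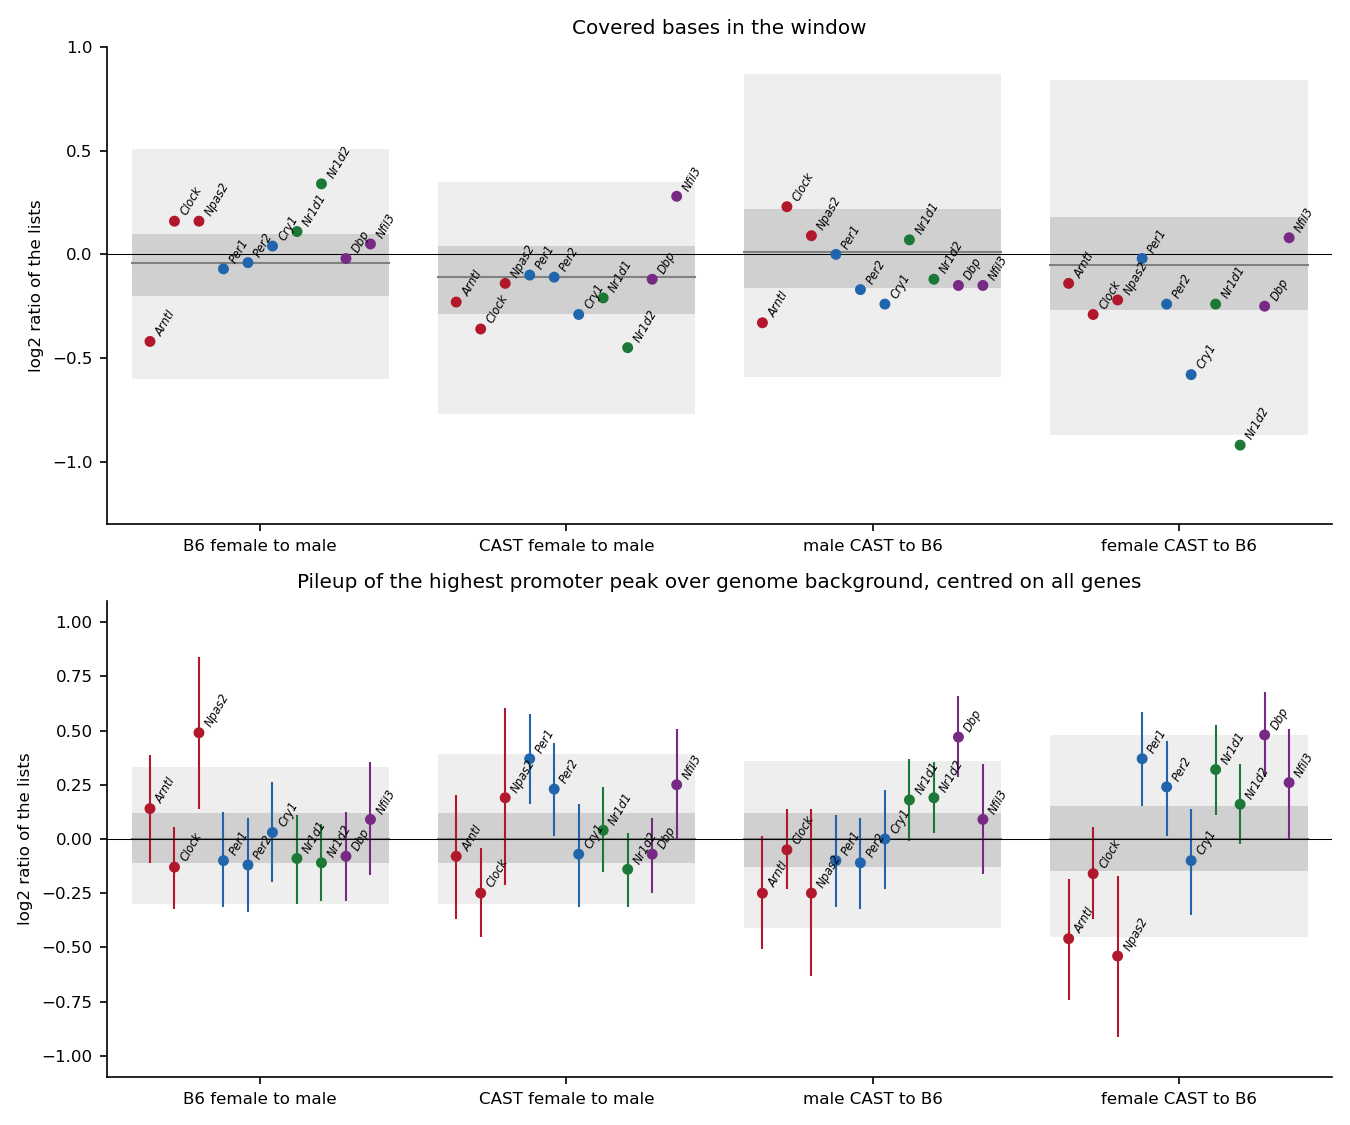
Log2 ratios of the lists for the 10 clock genes in the 4 comparisons: covered bases (top) and centred pileup of the highest promoter peak with its 95% counting interval (bottom), coloured by role (red activators, blue repressors, green REV-ERB receptors, purple D-box factors). Light and dark bands hold the central 90% and 50% of all genes; between the females Npas2 (-0.54) and Arntl (-0.46) lay at the bottom and Dbp (0.48) at the top.

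**Figure D5:**
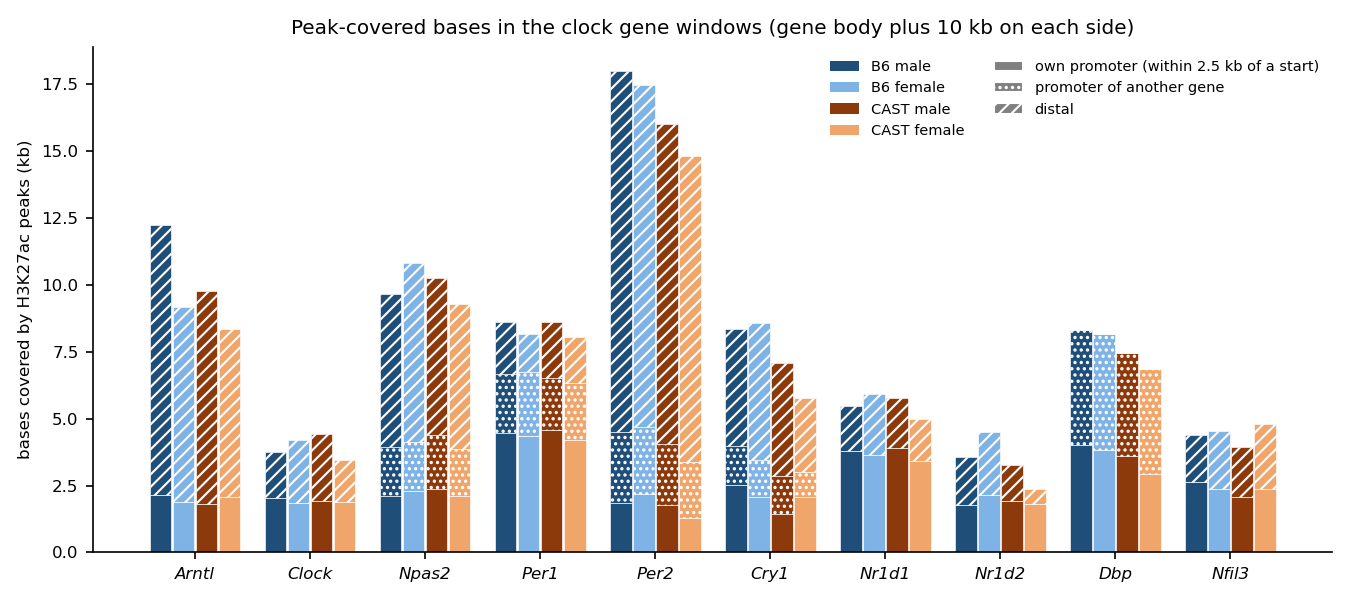
Bases covered by peaks in each clock gene window in kb, stacked by own promoter, promoter of another gene and distal, for the 4 lists. Per2 had 18000 bp in B6 males and the bars of CAST females were the lowest of the 4 at 9 of 10 genes, Nfil3 being the exception. The CAST female list also covered the fewest bases over all chromosomes used.

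CAST values carry their own conditions. CAST reads were mapped to a CAST genome and converted to mm9, the printed sequences hold no CAST variants, and mapping and strain cannot be told apart in the strain comparisons. The lower coverage of CAST females went with the lowest genome-wide background of the 4 lists, 16.8, and the fewest covered bases, 65.3 Mb beside 70.3, 67.1 and 72.8 Mb in the other lists. With the covered bases scaled to the list, 2 members passed the fold between the females, both lower in CAST, while between the sexes of CAST the 2 lower calls were lost and 1 higher call appeared.

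A further 15 genes of the clock were looked at as a list: Cry2, Per3, Rora, Rorb, Bhlhe40, Bhlhe41, Tef, Hlf, Gm129 (the older symbol of Ciart), Csnk1d, Csnk1e, Fbxl21, Btrc, Timeless and Arntl2. Of these 14 had a promoter peak in all 4 lists, and Rorb, a receptor of retina and brain, had none in any, beside 57.6% of all genes with such a peak in all lists. Their centred pileup ratio had 2 intervals above 1 and 2 below between the sexes of B6, 4 and 1 between those of CAST, 1 and 2 between the males and 3 and 3 between the females. The shares of all genes above and below were 6.03% and 5.5%, 6.28% and 6.32%, 9.13% and 8.77%, and 11.6% and 10.9%. The median ratio between the females was 1.01.

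The following examples were chosen after their values were seen. Gm129, which encodes a repressor of the loop, had a promoter pileup of 134 and 126 in male and female B6 and 202 and 210 in male and female CAST, so both CAST lists were above both B6 lists, with a centred ratio of 1.38 between the males and 1.94 between the females. Arntl2, a paralogue of Arntl, had 142, 131, 77 and 56, with both CAST lists lower and ratios of 0.495 and 0.499. Per3, a paralogue of Per1 and Per2, had 341, 289, 344 and 316, with 1.28 between the females. Bhlhe41, an E-box repressor, had 282, 154, 189 and 119, with a centred ratio of females to males of 0.55 in B6 and of 0.808 in CAST, where its interval spanned 1. Fbxl21, which encodes an F-box protein that binds CRY proteins, had 187, 208, 209 and 119.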

How the data were processed

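H3K27ac ChIP-seq peak lists of 4 groups of liver (5 livers and 1 input each) were used. As the study describes it, the authors mapped B6 reads to mm9 and CAST reads to a custom CAST genome with Bowtie2, kept unique alignments, called peaks with MACS2 over input, removed blacklisted and duplicate-only regions and converted CAST coordinates to mm9. The deposited values of a peak, made by MACS2, were its score, the ratio of its summit to the local background (fold enrichment), and −log10 of its p-value and q-value; the peak names carry single-library codes, and the lists were taken as merged. Per-liver depth was not analysed here.

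Peaks on the autosomes and X were assigned to windows of protein-coding genes (GENCODE vM1 on NCBIM37, which is mm9) and merged across lists where they overlapped by at least 1 bp. Promoters were 2.5 kb on each side of an annotated start. The highest promoter peak was that with the highest score, ties broken by p-value. Summit pileup and local background were solved from these values (fold enrichment and p) with the MACS2 formulas, a step added after the data were seen; the solver was tested on simulated peaks. With 1 list per group, values stand beside all genes and carry no test. All 10 members were named; regions were named when they were a member's highest promoter peak, its widest distal region, or a distal region in 1 or 2 lists at or above the 50th percentile, and further regions were chosen after their values were seen. The members and lists were chosen with earlier results of these data known. Some genes of the wider clock list are not reported here and were left out of its counts. Alternatives were windows of 5 and 25 kb, a 1 kb promoter, strong calls (−log10 q of at least 5), lists of equal length, scaling to the list, 1.5-fold, no promoters of other genes, and merging of peaks up to 500 bp apart. Python 3.11.15, numpy 2.4.6, scipy 1.17.1, pandas 2.3.3 and statsmodels 0.14.6 were used.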

Additional observations from a re-analysis of the deposited data

How the results depend on the processing

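The share of clock gene regions called in all 4 lists stayed between 56.6% and 68.2% under every setting tried, and 10 of 10 members kept a promoter peak in all lists with a 1 kb promoter, strong calls or lists of equal length. The counts of members past the fold are small, so 1 gene moves them. For all genes, such shares were not computed under the alternative settings or for centred pileup, so these counts have no background beside them. In covered bp, strong calls gave 1 member between the sexes of B6, 2 between the males and 4 between the females (all lower in CAST in the strain comparisons), lists of equal length gave 1 between the sexes of B6 and 2 between the males, and scaling to the list gave 1 between the sexes of CAST, which was higher where 2 had been lower. Windows of 25 kb gave 0 members higher and 2 lower between the sexes of B6, where there had been 1 each way. At 1.5-fold the counts were 0 between the sexes of either strain and between the males and 1 between the females, Nr1d2. In promoter fold enrichment, the 1 kb promoter gave 1 in B6 and 1 between the males, both Per2 (1.66 and 1.37). Between the males the highest peak changed in both lists, to the start region. In B6 it changed in males only, so 1.66 compared different regions. Within the start region the fold enrichment was 1.61 in both B6 lists, with a centred pileup ratio of females to males of 0.855 (0.705 to 1.04). Scaling gave 1 member in CAST, and 1.5-fold gave 0 between the females. Centred pileup in place of fold enrichment, chosen after seeing the data, gave 1 member in B6, 1 in CAST, 1 between the males and 4 between the females (2 higher, 2 lower). Of 240 covered bp ratios of single members under these settings 232 moved by less than the fold, as did 193 of 200 promoter ratios; 27 and 17 changed side of 1, none from a ratio past the fold. Apart from the change of peak at Per2, the cause of these moves was not tested. No list could be left out in turn, since each is the only one of its group. No paired analysis was possible because each list pools its livers and the result comes from no test.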
